A study of Homo sapiens with 6 samples.

Results

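Insulin and insulin-like growth factor (IGF) signalling genes were followed in HEK293 cells that carry a myocilin vector, from the extracellular ligands down to the FOXO transcription factors and their targets. A set of 36 named genes defined the group, which took every probe set that the platform annotation gives to exactly 1 of them. This gave 94 of the 41751 probe sets in the table and 33 of its 18338 genes. IGF2, PIK3CA and PIK3R2 had no such probe set and were not analysed here as genes.

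HEK293 is a widely used human cell line derived from embryonic kidney. Both groups were stable Tet-On derivatives of it, in which doxycycline switches on the inserted gene, and both were kept in hygromycin B and G418. The control group carried a control vector and the myocilin group a vector expressing myocilin, with 3 Affymetrix HG-U133 Plus 2.0 arrays of total RNA each. The protocols name 0.2 or 1 µg/ml doxycycline for 48 h without giving the dose behind an array, and the sample descriptions name the drug for the myocilin arrays alone, so exposure to the drug and the vector cannot be told apart. Each vector is represented by a single stable line, so the vector and other differences between the lines cannot be told apart either. Whether a line's arrays were made from separate cultures is not stated, so the p-values reflect only how far these samples spread, and that spread may be technical.

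Insulin and IGF ligands bind the receptor tyrosine kinases INSR and IGF1R, which phosphorylate the IRS adaptors. These recruit phosphoinositide 3-kinase (PI3K), a dimer of a catalytic and a regulatory subunit, and the lipid it makes brings PDK1 and AKT to the membrane. Active AKT inhibits GSK3 and keeps FOXO factors out of the nucleus, so FOXO target genes are held down while the pathway is on. In cultured cells fed with serum this is a main route of growth and survival signals.

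All values are the authors' centred values on a scale read as log2, in which 0 is a reference level set for each probe set. They show differences between arrays, not abundance, so levels of different genes cannot be compared and no check of HEK293 markers by level was possible. Every array had a median of 0. Correlations over all probe sets were 0.409 to 0.464 among control arrays, 0.513 to 0.608 among myocilin arrays and -0.244 to -0.00516 between the groups. MYOC, the induced gene, read -6.71, -8.32 and -8.29 in the control line and 0.21, 0.20 and 0.24 in the myocilin line. Of 9 genes known from HEK293 cells, 3 rose and 1 fell, or 44.4% called against 15.6% of all genes. NEFM, NEFH and INA rose by 1.42, 0.67 and 0.35, and CDH2 differed by -0.50. They lie on chromosomes 8, 22 and 10, where 11.7%, 16.7% and 21.3% of genes rose, and 18, where 48.2% fell. Among markers of other cells, 0 of 4 for blood cells, 0 of 3 for endothelium and 0 of 2 for squamous epithelium passed, and 1 of 4 for fibroblasts rose, the collagen gene COL1A1, by 0.25. The part of other cells in the results was not tested.

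Of the 33 measured members, 11 passed an adjusted p of 0.05 in limma's fit over all genes, 5 higher and 6 lower in the myocilin line. IRS2, IGF2R, FBXO32, PHLPP2 and PIM3 rose, and IGFBP5, PIK3R3, CITED2, IGFBP2, CCNG2 and AKT2 fell. The share called was 33.3% of the members, against 15.6% of all 18338 genes (8.28% rose and 7.35% fell). The groups did not overlap for 19 members, or 57.6%, against 34.9% of all genes. The members' median difference was -0.01, against 0.02 over all genes, and their median absolute difference 0.14 against 0.10. Since the members were chosen with results of these arrays known, the higher share is a description only. No member reached a log2 difference of 1, which 59 genes in all did, and the 22 members that did not pass differed by -0.23 to 0.23. The count of called members was 7 without myocilin array 1, 6 without myocilin array 2 and 6 without myocilin array 3, where 8.8%, 10.4% and 10.8% of all genes were called.

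**Figure D1:**
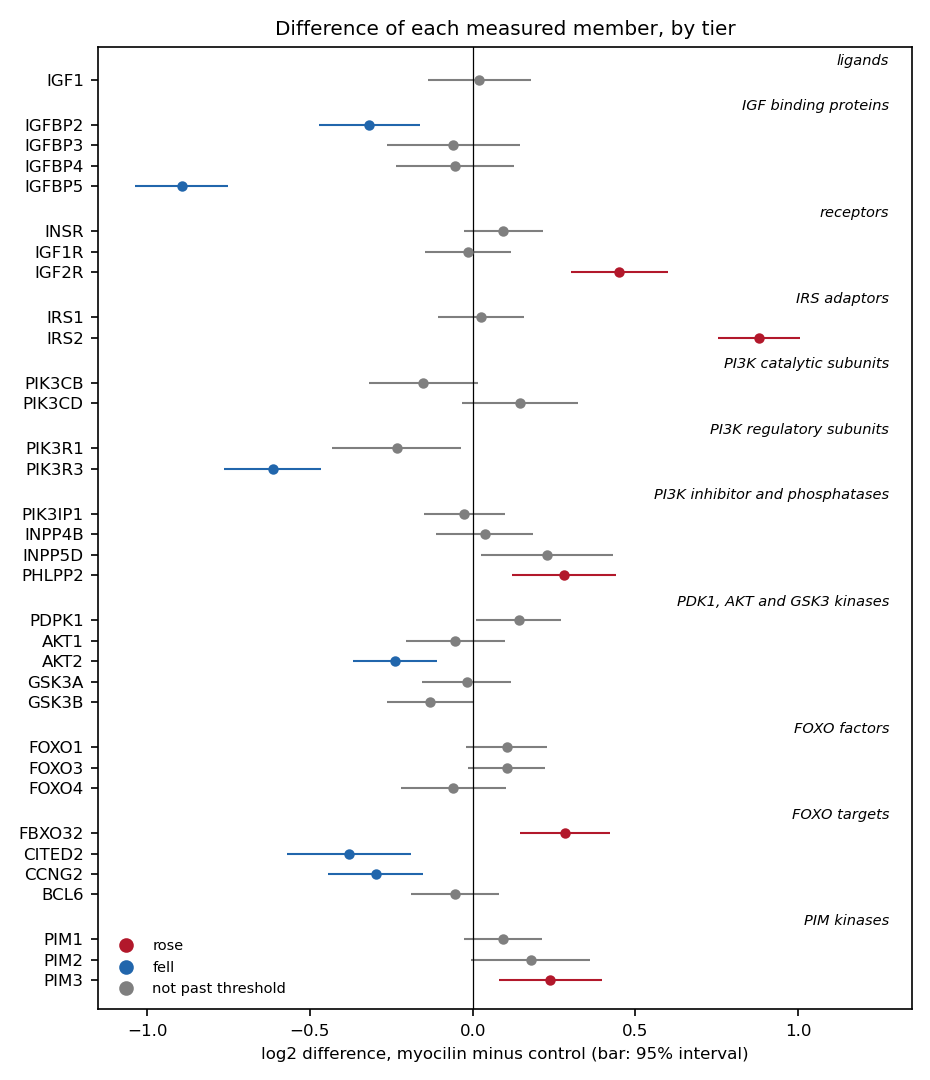
Difference in each of the 33 measured members, as the log2 value of the myocilin line minus that of the control line, with its 95% interval from limma, grouped by tier. IRS2 at 0.88 and IGFBP5 at -0.89 lie farthest from 0, and most other members lie within 0.3 of it.

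The largest changes among the members were those of IRS2 and IGFBP5, and the start regions of these genes are printed here to show what lies at their promoters. Each window covers 250 bases before to 50 bases after a RefSeq start on GRCh38.p14, 5′ to 3′ along the gene. The IRS2 window is chr13:109786534-109786833 on the minus strand and the IGFBP5 window chr2:216695500-216695799 on the minus strand. Capitals mark matches to either of 2 FOXO-type motifs, GTAAACA and TGTTTTG, searched on both strands.
IRS2: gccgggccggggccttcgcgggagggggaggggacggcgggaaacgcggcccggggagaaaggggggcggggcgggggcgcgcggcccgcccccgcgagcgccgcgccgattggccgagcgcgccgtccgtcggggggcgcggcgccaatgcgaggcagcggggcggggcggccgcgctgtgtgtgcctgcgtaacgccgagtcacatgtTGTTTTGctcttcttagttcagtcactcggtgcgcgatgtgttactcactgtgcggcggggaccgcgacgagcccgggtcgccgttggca
IGFBP5: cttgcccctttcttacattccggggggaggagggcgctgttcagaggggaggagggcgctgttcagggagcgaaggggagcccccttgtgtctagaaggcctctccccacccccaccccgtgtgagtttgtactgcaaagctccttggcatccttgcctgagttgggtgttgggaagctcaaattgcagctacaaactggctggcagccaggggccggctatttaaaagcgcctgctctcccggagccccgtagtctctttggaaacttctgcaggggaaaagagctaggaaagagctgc
The IRS2 window held 1 match, TGTTTTG, with its first base at -40 from the start, and the IGFBP5 window held 0 matches. The IRS2 window was 75.7% G or C and the IGFBP5 window 59.0%. Among the 34 members with a window, 6 held either motif (17.6%), against 9.80% of all 27305 genes with a window of this length. Members had more windows for each gene, and of their 62 windows 9.68% held either motif, near the 8.07% of all 35116 windows. The 6 genes were IRS2, PIK3CD, FOXO4, IGF1, PIK3CA and PIK3IP1, and IRS2 was the only one among the 11 called members. A match is a string of letters in this window and not a shown binding site.

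Among ligands and binding proteins, IGFBP5 and IGFBP2 fell and the others did not pass. IGF1, the circulating growth factor, had group means of 0.03 ± 0.06 and 0.05 ± 0.11 (SD, n = 3 each). IGFBP5 encodes a secreted protein that binds IGFs and also the extracellular matrix. It read 0.32, 0.45 and 0.35 in the control line and -0.54, -0.58 and -0.44 in the myocilin line. Every myocilin array lay below every control array, by a margin several times the spread within a line. The log2 difference was -0.89 ± 0.06 (SE), 1.86-fold lower (limma adjusted p = 5.57e-05).

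The probe sets of IGFBP5 fell into a group with large and a group with small differences. The 4 that passed fell by 1.42 (203424_s_at), 1.37 (211959_at), 1.10 (211958_at) and 0.97 (1555997_s_at). The other 2 read -0.30 (203425_s_at, adjusted p = 0.108 in limma's probe set fit) and -0.20 (203426_s_at, adjusted p = 0.199). The mean over the gene is thus smaller than the change at most of its probe sets.

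IGFBP2 encodes another IGF-binding protein and is the neighbour of IGFBP5 on chromosome 2, with 0 other protein-coding or measured genes between them in the RefSeq order of GRCh38.p14. Its probe set read 0.31, 0.31 and 0.33 in the control line and 0.03, -0.13 and 0.10 in the myocilin line. The control arrays were nearly equal, and the myocilin arrays were spread below them. The log2 difference was -0.32 ± 0.07 (SE), 1.25-fold (limma adjusted p = 0.0145). IGFBP2 was called in the probe set fit too (adjusted p = 0.031). With the median of the 50 measured genes nearest on the chromosome subtracted, an alternative chosen after seeing the data, IGFBP2 differed by -0.29 and IGFBP5 by -0.87, and both were still called. IGFBP5 minus IGFBP2 differed between the lines by -0.58 ± 0.05 (SE).

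IGFBP3 and IGFBP4, which also bind IGFs outside the cell, differed by -0.06 and -0.05, and their groups overlapped. For IGFBP3, myocilin array 3 stood apart at probe set 210095_s_at, with 0.09 against -0.53 and -0.53 on the other myocilin arrays. The 95% intervals of the gene differences were -0.26 to 0.14 for IGFBP3 and -0.24 to 0.13 for IGFBP4.

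Of the 3 receptors, IGF2R rose and the signalling receptors INSR and IGF1R did not pass. IGF2R, the mannose 6-phosphate receptor, takes up IGF2 for breakdown in lysosomes and has no kinase. It read -0.09, 0.04 and -0.13 in the control line and 0.45, 0.39 and 0.32 in the myocilin line. All myocilin arrays were above all control arrays, and the log2 difference was 0.45 ± 0.07 (SE), 1.37-fold (limma adjusted p = 0.00249). Its 2 probe sets both read 0.45 and both passed.

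IGF2R lies on chromosome 6, where 22.7% of measured genes rose and the median difference was 0.09. Minus its chromosomal neighbours, IGF2R still rose, by 0.35 (limma adjusted p = 0.0156). INSR, the insulin receptor, read -0.07, -0.08 and -0.12 in the control line and 0.03, -0.00 and -0.02 in the myocilin line, which did not overlap. Its log2 difference of 0.09 ± 0.05 (SE) nevertheless missed the threshold (limma adjusted p = 0.276). IGF1R, the main receptor of both IGFs, differed by -0.01, and none of its 5 probe sets passed.

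**Figure D2:**
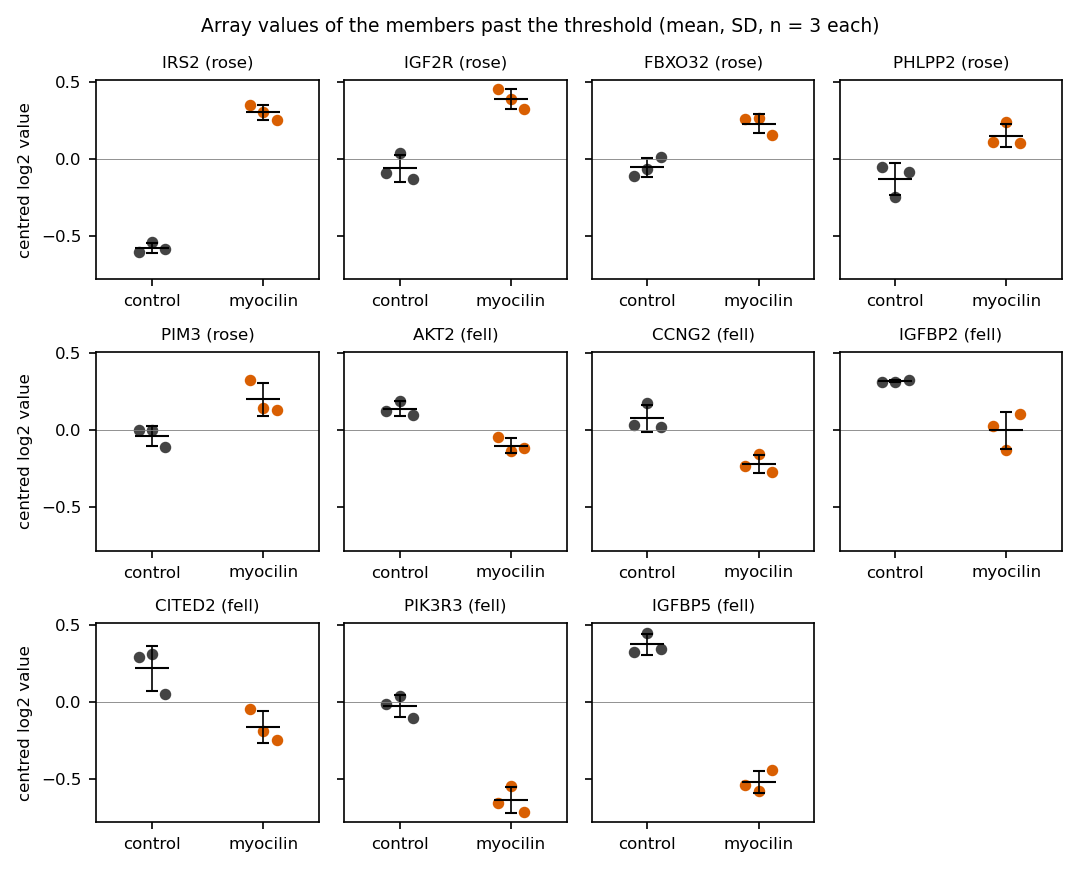
Centred log2 values of the 11 members past the threshold on each array, with the mean and SD of each line (n = 3 each). In every panel the lines do not overlap, and the gap is widest for IRS2 and IGFBP5.

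IRS2 rose while IRS1 did not pass. Both are docking proteins that carry the signal from the receptors to PI3K. IRS2 read -0.60, -0.54 and -0.59 in the control line and 0.35, 0.31 and 0.25 in the myocilin line. The arrays of each line lay close together and the lines far apart. The log2 difference was 0.88 ± 0.06 (SE), 1.84-fold (limma adjusted p = 3.23e-05), and its 2 probe sets rose by 0.91 and 0.85. Both are of the _s_at type, which can match several transcripts. The change of IRS2 was larger than that of 99.6% of all genes.

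The probe sets of IRS1 went in different directions. They read 0.28 (204686_at), -0.01 (238933_at) and -0.19 (242979_at), none past the threshold, although the lines did not overlap for the first and the third. The mean over IRS1 was 0.03 with a 95% interval of -0.11 to 0.16. Taken as IRS2 minus IRS1 on each array, the lines differed by 0.85 ± 0.04 (SE). In an exact permutation test over the 6 arrays (two-sided) this gave p = 0.1, the smallest p that 3 arrays against 3 allow. The exact permutation test was made for 4 pairs of related members, the other pairs being PIK3R3 and PIK3R1, AKT2 and AKT1, and IGFBP5 and IGFBP2, and gave p = 0.1 for each (0.1 after Benjamini-Hochberg adjustment). Each pair sets a called member against a relative with a smaller change, and no lower p was possible. The test therefore decides nothing for any pair.

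In PI3K, the regulatory subunit gene PIK3R3 fell and the measured catalytic subunit genes, PIK3CB and PIK3CD, did not pass. PIK3CA and PIK3R2 were not measured as genes. PIK3R3 encodes p55-gamma, which binds IRS proteins and holds the catalytic subunit. It read -0.01, 0.04 and -0.10 in the control line and -0.66, -0.55 and -0.71 in the myocilin line. All myocilin arrays were lower, with a log2 difference of -0.61 ± 0.07 (SE), 1.53-fold (limma adjusted p = 0.00059). Both probe sets fell, by 0.70 and 0.53.

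PIK3R1, which encodes the p85-alpha regulatory subunit and shorter forms, pointed the same way with a smaller difference. It read -0.11, 0.10 and -0.13 in the control line and -0.20, -0.20 and -0.44 in the myocilin line. The lines did not overlap, but the difference of -0.23 ± 0.09 (SE) missed the threshold (limma adjusted p = 0.109). It was -0.16 without control array 2 and -0.15 without myocilin array 3 (limma adjusted p = 0.287 and 0.291). Of its 3 probe sets, 212249_at fell by 0.29 (adjusted p = 0.047 in the probe set fit). PIK3R3 minus PIK3R1 differed between the lines by -0.38 ± 0.07 (SE, exact permutation p = 0.1).

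The catalytic subunit genes PIK3CB, for p110-beta, and PIK3CD, for the p110-delta known mainly from leukocytes, differed by -0.15 and 0.15. Their 95% intervals were -0.32 to 0.02 and -0.03 to 0.32. A probe set of each separated the lines. These were 212688_at of PIK3CB at -0.24 (adjusted p = 0.072 in limma's probe set fit) and 203879_at of PIK3CD at 0.29 (adjusted p = 0.085). With _x_at and _s_at probe sets dropped, PIK3CB rested on 212688_at alone and was called as lower.

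Among inhibitors and phosphatases of the pathway, PHLPP2 rose and the others did not pass. PHLPP2 is a phosphatase that removes an activating phosphate from AKT. It read -0.05, -0.25 and -0.09 in the control line and 0.11, 0.24 and 0.11 in the myocilin line. The lines did not overlap, and the log2 difference was 0.28 ± 0.07 (SE), 1.21-fold (limma adjusted p = 0.0274). Its probe sets read 0.37, past the threshold, and 0.19, not past it.

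PHLPP2 lies on chromosome 16, where 27.5% of genes rose and the median difference was 0.14. Minus its chromosomal neighbours PHLPP2 differed by 0.16 and was not called (limma adjusted p = 0.209). Its paralogue PHLPP1, not a member, fell by 0.25 and lies on chromosome 18, where 48.2% of genes fell and the median was -0.21. Minus neighbours PHLPP1 read -0.16 (limma adjusted p = 0.0858). With the first of its 2 probe sets by ID PHLPP1 read -0.02 (limma adjusted p = 0.887). Without myocilin array 1 it was not called either (-0.26, limma adjusted p = 0.0503). The call of PHLPP2 was also lost on leaving out any array but control array 1, with differences of 0.22 to 0.30. The part of the chromosome in either difference was not tested further.

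INPP5D encodes SHIP1, a lipid phosphatase known mainly from blood cells, and INPP4B a phosphatase that acts on the product of SHIP-type enzymes. INPP5D read -0.17, 0.02 and -0.37 in the control line and 0.02, 0.06 and 0.09 in the myocilin line. The lines overlapped because control array 2 was high, and the difference was 0.23 ± 0.09 (SE, limma adjusted p = 0.125). Without control array 2 it was 0.32 and passed (limma adjusted p = 0.0344), and without control array 3 it was 0.13 (limma adjusted p = 0.322). Of its 3 probe sets, 203332_s_at rose by 0.43 (adjusted p = 0.044), while 1568943_at read -0.03. INPP4B differed by 0.04, and PIK3IP1, a membrane protein that inhibits PI3K, by -0.03.

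Of PDK1, AKT and GSK3 genes, AKT2 fell and the other 4 did not pass as genes. AKT2, the AKT kinase most tied to insulin-driven glucose uptake, read 0.12, 0.19 and 0.10 in the control line and -0.05, -0.13 and -0.12 in the myocilin line. The lines did not overlap, and the log2 difference was -0.24 ± 0.06 (SE), 1.18-fold (limma adjusted p = 0.0231). Among 6 probe sets, 5 read -0.19 to -0.36 with 225471_s_at alone past the threshold at -0.33, and 226156_at read 0.05. The call was lost without control array 2 (-0.21), myocilin array 2 (-0.22) or myocilin array 3 (-0.23), and when _x_at and _s_at probe sets, which can match several transcripts, were dropped (-0.07, limma adjusted p = 0.618), as well as with the first probe set by ID (-0.34, limma adjusted p = 0.103).

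AKT1, the most widely expressed AKT, had a single probe set and differed by -0.05 with a 95% interval of -0.21 to 0.10. PDPK1, which encodes PDK1, read -0.24, -0.10 and -0.18 in the control line and -0.01, -0.04 and -0.04 in the myocilin line. The lines did not overlap, but the difference of 0.14 missed the threshold (limma adjusted p = 0.137). PDPK1 lies on chromosome 16, as PHLPP2 does. AKT2 minus AKT1 differed between the lines by -0.19 ± 0.08 (SE, exact permutation p = 0.1).

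GSK3B showed the widest split among probe sets of the kinases. GSK3A and GSK3B encode kinases that AKT inhibits, and that restrain glycogen synthesis and beta-catenin. Averaged over 4 probe sets, GSK3B differed by -0.13 and was not called (limma adjusted p = 0.168). Yet 226183_at fell by 0.52 (adjusted p = 0.016) and 226191_at by 0.43 (adjusted p = 0.009), while 209945_s_at read 0.31 (adjusted p = 0.086) and 242336_at 0.11. Probe set 226183_at read -0.04, 0.05 and 0.32 in the control line and -0.32, -0.33 and -0.57 in the myocilin line, and 209945_s_at read -0.45, -0.39 and -0.16 against -0.17, -0.03 and 0.14. The probe sets that passed were lower in the myocilin line, the other 2 did not pass and lay above 0, and the gene mean lies between them. GSK3A differed by -0.02.

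**Figure D3:**
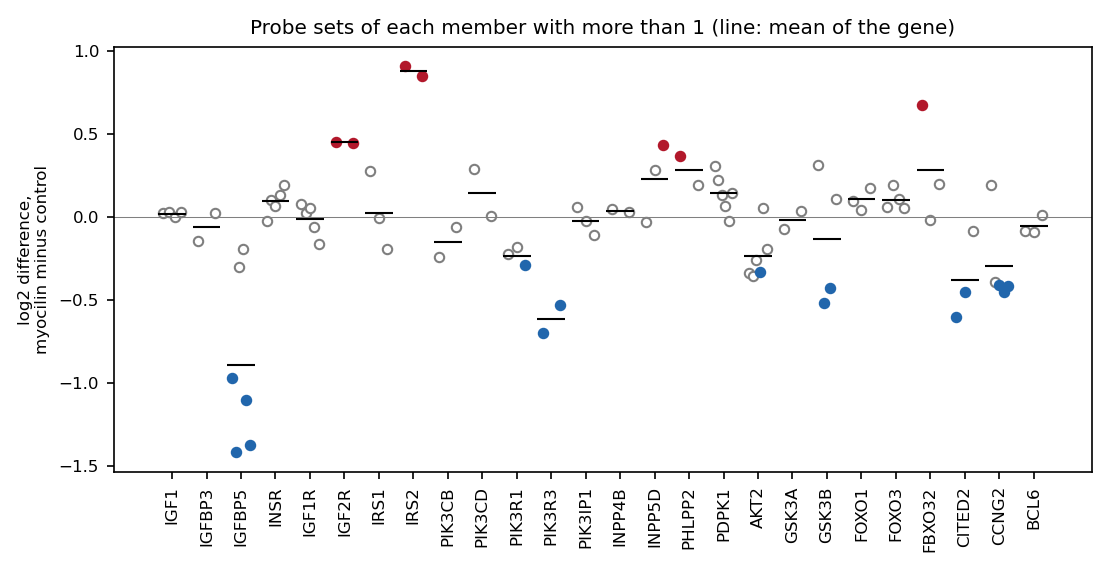
Log2 difference, myocilin minus control, of each probe set of the 26 members with more than 1, with a line at the mean over the gene. Filled points passed the threshold over all probe sets, red higher and blue lower; GSK3B, IRS1 and CCNG2 have probe sets on both sides of 0.

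Over the 94 member probe sets, 23 passed, 7 higher and 16 lower, or 24.5% against 11% of all probe sets. The lines did not overlap for 42.6% of them, against 30.4% of all. Every probe set passed for 4 members, IRS2, IGF2R and PIK3R3 with several and IGFBP2 with a single one. Probe sets of both signs were found in 13 of the 26 members with several, and 0 members had probe sets past the threshold in both directions. GSK3B, INPP5D and PIK3R1 had a probe set past the threshold without being called as genes.

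No FOXO factor gene passed. FOXO1, FOXO3 and FOXO4 encode the forkhead factors that AKT phosphorylates. FOXO3 read 0.02, -0.02 and 0.01 in the control line and 0.08, 0.13 and 0.10 in the myocilin line, and FOXO1 read -0.11, -0.11 and -0.12 against -0.03, 0.05 and -0.04. For both genes the myocilin arrays were all higher, by 0.10 for FOXO3 and 0.11 for FOXO1, without passing (limma adjusted p = 0.224 and 0.24). FOXO3 lies on chromosome 6, where the median difference was 0.09, and FOXO1 on chromosome 13, where it was -0.01. The part of the chromosome in either difference was not tested. FOXO4 differed by -0.06 and its lines overlapped.

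The FOXO targets did not move as a group: FBXO32 rose, CITED2 and CCNG2 fell and BCL6 did not pass. FBXO32 encodes atrogin-1, a ubiquitin ligase known from muscle wasting. It read -0.11, -0.06 and 0.01 in the control line and 0.26, 0.27 and 0.16 in the myocilin line, a log2 difference of 0.28 ± 0.06 (SE), 1.22-fold (limma adjusted p = 0.0144). Most of it came from 225803_at at 0.67, beside 0.20 and -0.02 for the other probe sets. The call was lost without myocilin array 1 (0.27) or myocilin array 2 (0.26), and with the median of probe sets (0.17, limma adjusted p = 0.0748).

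CITED2 encodes a CBP/p300-binding regulator that limits HIF-1 activity. It read 0.29, 0.31 and 0.05 in the control line and -0.05, -0.19 and -0.25 in the myocilin line. Control array 3 lay nearest to the myocilin arrays but above them. The log2 difference was -0.38 ± 0.09 (SE), 1.30-fold (limma adjusted p = 0.0169), with probe sets at -0.61, -0.45 and -0.08. CITED2 lies on chromosome 6, where the median was above 0, and differed by -0.44 minus its neighbours. Its call was lost without control array 1 (-0.34) or 2 (-0.33) and without myocilin array 2 (-0.37) or 3 (-0.34), at limma adjusted p of 0.0524 to 0.0608. Dropping _x_at and _s_at probe sets lost it too (-0.27, limma adjusted p = 0.0527).

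CCNG2 encodes cyclin G2, an unusual cyclin linked to cell cycle arrest. It read 0.04, 0.18 and 0.02 in the control line and -0.23, -0.15 and -0.27 in the myocilin line, a log2 difference of -0.30 ± 0.06 (SE), 1.23-fold (limma adjusted p = 0.0152). Of its 5 probe sets, 4 read -0.39 to -0.45, 3 of them past the threshold, and 1555056_at read 0.19. The gene mean is thus smaller than the difference at most probe sets. The call was lost without myocilin array 1 (-0.29, limma adjusted p = 0.0571) or 3 (-0.27, limma adjusted p = 0.0507), and when _x_at and _s_at probe sets were dropped (-0.21, limma adjusted p = 0.0959). The first probe set by ID is 1555056_at, so that choice reversed the sign of CCNG2. BCL6, a transcriptional repressor of lymphoid cells, differed by -0.05.

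Among the PIM kinases, which act on many of the same substrates as AKT, PIM3 lay just past the threshold. PIM3 read an exact 0 on control arrays 1 and 2 and -0.11 on control array 3, against 0.33, 0.14 and 0.13 in the myocilin line. An exact 0 stands on at least 1 array for 57.3% of all probe sets. The lines did not overlap, and the log2 difference was 0.24 ± 0.07 (SE), 1.18-fold (limma adjusted p = 0.0493). In the probe set fit the same probe set did not pass (adjusted p = 0.093), and the gene call was lost without any 1 of the 6 arrays (0.18 to 0.27). PIM3 lies on chromosome 22, where 16.7% of genes rose and the median was 0.08, and it differed by 0.15 minus its neighbours (limma adjusted p = 0.205). PIM1 differed by 0.09, with the lines apart, and PIM2 by 0.18, with the lines overlapping. PIM1 lies on chromosome 6, where the median difference was 0.09, and PIM2 on chromosome X, where it was -0.01.

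A second list held 91 other genes of the pathway, of which 86 were measured. It was written with earlier results of these data known. Of the 86, 9 rose and 9 fell, or 20.9% called against 15.6% of all genes, with a median of -0.00. The count was 10 without myocilin array 1, where 8.8% of all genes were called. Of 12 other IGF system genes, IDE, the insulin-degrading enzyme, rose by 0.32 ± 0.06 (log2, SE) and IGF2BP1, which binds IGF2 mRNA, by 0.31 ± 0.06. IDE lies on chromosome 10 and minus its neighbours read 0.25 (limma adjusted p = 0.034). STC2, a secreted inhibitor of the IGFBP-cleaving pappalysins, fell by 1.09 ± 0.11, while the pappalysin genes PAPPA and PAPPA2 read 0.03 and -0.01. IGFBP1, IGFBP6 and IGFBP7 read -0.00, -0.20 and 0.00, none past the threshold.

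Among 14 other adaptors and modulators, GRB10, which binds and inhibits the insulin and IGF receptors, fell by 0.58 ± 0.07 (log2, SE). It read 0.29, 0.41 and 0.21 in the control line and -0.32, -0.31 and -0.21 in the myocilin line, which lay wholly below. The docking protein genes GAB2 and DOK5 rose by 0.35 and 0.26. GAB2 lost the call without myocilin array 1 (0.32), and DOK5 without control array 1 or 3, without myocilin array 2 or 3 and minus its chromosomal neighbours (0.21 to 0.27, limma adjusted p = 0.052 to 0.0794). IRS4, the IRS protein abundant in HEK293 cells, read -0.11 and did not pass. Of 8 other PI3K subunit genes PIK3C2B fell by 0.24, a call lost without control array 2 or 3 or myocilin array 1 or 2 (-0.22 to -0.24). Of 7 other phosphatase genes INPP5E rose by 0.33 and PHLPP1 fell as described above. Minus its chromosomal neighbours INPP5E read 0.15 and was not called (limma adjusted p = 0.138).

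Of 23 other AKT-level kinases and substrates, TRIB3, a pseudokinase that binds AKT, fell by 0.80 ± 0.10 (log2, SE). It read 0.09, 0.36 and 0.00 in the control line and -0.74, -0.69 and -0.53 in the myocilin line. Its paralogue TRIB2 fell by 0.28 and THEM4, an AKT-binding thioesterase, by 0.19, while RICTOR, a core part of mTORC2, rose by 0.25. THEM4 lost its call in 11 of 15 alternatives, each single array left out among them, and TRIB2 in 8 of 15, leaving out any array but control array 1 among them. RICTOR lost its call in 6 of 15, without control array 1 or 3 or myocilin array 1 or 3, with the first probe set by ID, and minus its chromosomal neighbours (0.20, limma adjusted p = 0.0596). TSC1, TSC2, RHEB and MTOR read 0.18, 0.13, -0.02 and -0.16, none past the threshold.

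Of 22 other FOXO and FOXO target genes, 3 rose and 2 fell, or 22.7% called against 15.6% of all genes (8.28% rose and 7.35% fell). TXNIP, which limits glucose uptake, fell by 0.70 ± 0.14 (log2, SE) and CDKN1B, the cell cycle inhibitor p27, by 0.43 ± 0.10. The call of CDKN1B was lost without control array 1 or 2 or myocilin array 1 or 3 (-0.32 to -0.44). SOD2, the mitochondrial superoxide dismutase on chromosome 6, rose by 0.48 ± 0.13 (0.36 minus its neighbours, limma adjusted p = 0.128), the receptor gene ERBB3 by 0.44 ± 0.07 and the autophagy gene MAP1LC3B by 0.41 ± 0.05. MAP1LC3B lies on chromosome 16 and minus its neighbours read 0.30 (limma adjusted p = 0.00763). SOD2 also lost its call without control array 1 or 2 or myocilin array 1 or 2 (0.37 to 0.50), and ERBB3 with the first probe set by ID (0.18, limma adjusted p = 0.254). The pro-apoptotic BCL2L11 at -0.14 and the gluconeogenic PCK1 at -0.14 and G6PC1 at -0.04 did not pass. As among the members and among all genes, calls went in both directions.

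**Figure D4:**
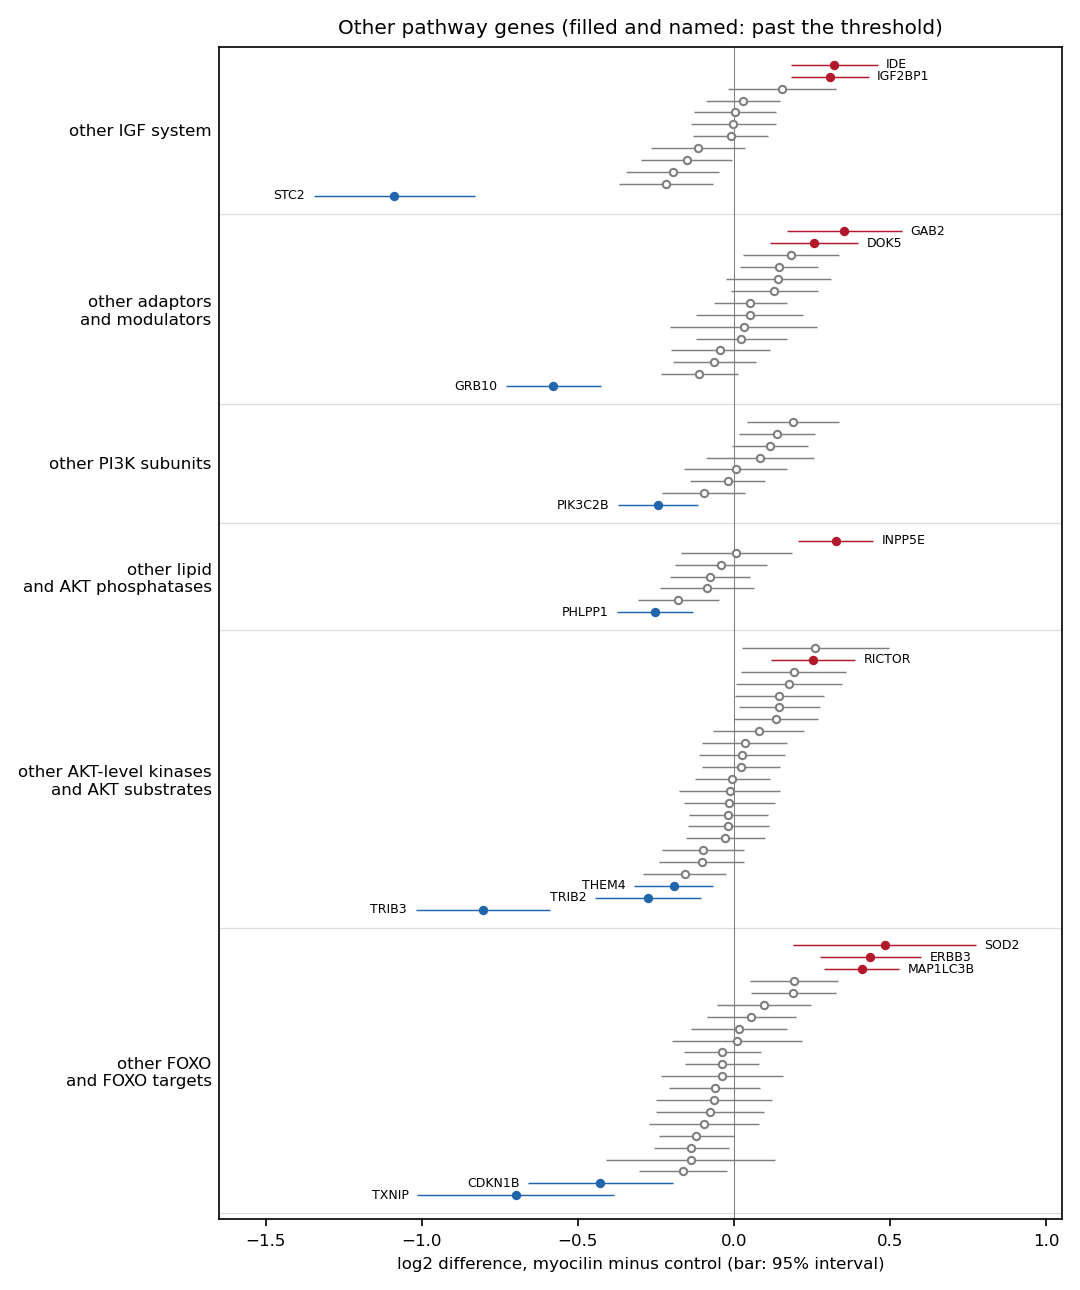
Log2 difference, myocilin minus control, with its 95% interval, for the 86 measured genes of the pathway outside the member list, by tier. Named and filled points passed the threshold, 9 higher and 9 lower; STC2 at -1.09 and TRIB3 at -0.80 lie farthest to the left.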

How the data were processed

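The series holds 6 Affymetrix HG-U133 Plus 2.0 arrays, 3 of each line, grouped by source name; replicates were numbered in accession order. The deposited table gives the authors' processed values, positive and negative, read as log2 from their range. How the authors corrected background, summarised and normalised, and the log base, was not given in the sources used here. The median of each array is 0, and an exact 0 stands on at least 1 array for 57.3% of probe sets. The centring removes brightness, so no detection call or filter on dim probe sets could be made, and the number of arrays limits the precision. The table held 41751 probe sets and 0 platform control probe sets, so it may not be the whole array. Shares of all genes and probe sets refer to this table.

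Of the probe sets, 37460 had 1 gene in the platform annotation, 1728 several and 2563 none listed; Entrez identifiers of 37416 matched RefSeq genes of GRCh38.p14, which gave current symbols. Probe sets of a gene were averaged. Genes (18338) and probe sets (41751) were fitted separately by two-sided tests in limma 3.58.1 under R 4.3.3 (lmFit, then eBayes), using Benjamini-Hochberg adjustment over all of them and a threshold of 0.05. The fit was tested on simulated data. The members and lists were chosen with earlier results of these data known. All members are accounted for; those past the threshold, as genes or by a probe set, are given in full, and of the other pathway genes those past it with some others, chosen after their values were seen. Alternatives were quantile normalisation, median centring, trend and robust eBayes, array weights, the median or the first probe set of a gene, probe sets ending in _x_at or _s_at or with the lowest standard deviation left out, and each array left out; after seeing the data, subtraction of the median of 50 chromosomal neighbours was added. Promoter windows were taken from RefSeq.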

Additional observations from a re-analysis of the deposited data

How the results depend on the processing

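IRS2, IGF2R, IGFBP2, IGFBP5 and PIK3R3 kept their direction and stayed past the threshold in every alternative run for them. IRS2 and IGF2R have only _s_at probe sets, so the run without these could not be made for them. The other 6 called members lost the call in at least 1 run, as did 11 of the 18 other pathway genes called. Leaving out each array gave 6 to 10 called member genes (11 with all arrays), 17 to 20 member probe sets (23) and 10 to 14 other pathway genes (18), while 8.8% to 12.1% of all genes and 5.46% to 7.86% of all probe sets were called. With _x_at and _s_at probe sets dropped, 28 members were left and 7 were called, 5 of them called with all probe sets, and 10 of 54 member probe sets were called, beside 12.1% of all genes and 9.81% of all probe sets. The members newly called there were GSK3B at -0.28 and PIK3CB, left with 212688_at alone, at -0.24. INPP5D, at -0.0311, was reversed in sign. Taking the first probe set by ID, CCNG2 read 0.19, GSK3B 0.31 and INPP5D -0.0311, the reverse of their gene means. The cause of these differences was not tested. Quantile normalisation called 10 members, median centring 11, and subtraction of chromosomal neighbours 9, beside 15.5%, 15.6% and 11.4% of all genes. No paired analysis was possible because the groups share no replicate numbers in the labels; the title numbers run from 1 to 3 and from 7 to 9.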

Other observations

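IGF2 and FOXO3 also have 3 probe sets each that the annotation shares with another gene, INS-IGF2 and FOXO3B, and these belong to no comparison above. The IGF2 probe sets differed by 0.25 (202409_at), 0.24 (202410_x_at) and 0.14 (210881_s_at), myocilin minus control on the log2 scale, none past the threshold (limma adjusted p = 0.0973, 0.0848 and 0.569). Probe set 202409_at read -0.07, -0.16 and -0.33 in the control line and 0.13, 0.05 and 0.00 in the myocilin line, which were all higher. The FOXO3 probe sets differed by 0.14, 0.01 and 0.16, with overlapping lines.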
